A study of Mus musculus with 2 samples.

Results

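The genes described are the nuclear genes for mitochondrial ribosomal proteins, chosen as the protein-coding RefSeq genes on mouse chromosomes 1 to 19 (GRCm38) whose symbol starts with Mrpl or Mrps followed by a digit. There are 78 such genes among 20665 protein-coding genes on these chromosomes, 49 with an Mrpl symbol and 29 with an Mrps symbol. The symbols stand for the large and the small subunit, with exceptions: Mrps18a and Mrps30 encode proteins of the large subunit, and the product of Mrps36 is now known as a subunit of the 2-oxoglutarate dehydrogenase complex. The data are RUNX2 CUT&Tag peak lists from untreated MC3T3-E1 cells, a mouse line of osteoblast precursors, with 1 group and 2 replicate libraries. RUNX2 is the transcription factor that directs osteoblast differentiation, and in CUT&Tag an antibody against it tethers the transposase Tn5, which then cuts and tags the DNA nearby. The lists hold 26853 peaks in replicate 1 and 27287 in replicate 2, as positions and widths with no height. Read depth is therefore unknown, no RNA was measured that could check the cell type, and no control library is among the samples. Where a share below carries an interval, it is a 95% Wilson interval, which covers counting error only. With a single group no test between conditions was possible, and the comparisons with other genes are descriptions without a test.

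Mitochondria translate the few proteins encoded by their own DNA on ribosomes of their own, whose RNA is mitochondrial and whose proteins are made in the cytosol and imported. The products are core subunits of the respiratory chain and the ATP synthase, so these ribosomes are needed wherever a cell makes ATP by oxidative phosphorylation. Their protein genes are scattered over the nuclear genome and are transcribed in nearly all cell types. Promoters of such genes are often rich in CpG and often hold binding sequences for NRF1, for ETS factors such as GABPA and for YY1.

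RUNX2 peaks shared by both replicates lay at most of these genes, and at over 50% of them they covered the start. A shared region is made of peaks of both lists that overlap by at least 1 bp, and it was linked to a gene when its position, the midpoint of its widest replicate 1 peak, lay inside the gene or within 10 kb of either end. In all, 64 of the 78 genes (82.1%, 72.1 to 89.0) had a shared region, against 54.6% of all protein-coding genes. A shared region in which a peak of each replicate covered the gene's start was found at 42 of the 78 genes (53.8%, 42.9 to 64.5), against 24.5% of all protein-coding genes. Of these 42 regions, 15 also covered the start of another protein-coding gene. Where the promoter table used lists no start for a gene, as for 9 of the 78, either end of the gene counted. With only the peaks above the median width of each list, the counts were 37 and 24 of the 78 genes, against 37.6% and 17.2% of all protein-coding genes. The group's lead over all protein-coding genes was smaller with that setting, for both counts. With only listed starts the count was 36 of 69 (52.2%, 40.6 to 63.5), against 26.0%.

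Each replicate alone gave the same picture. A peak of replicate 1 lay within 10 kb of 72 genes and a peak of replicate 2 of 70 genes, against 62.6% and 62.7% of all protein-coding genes. The starts of 54 genes were covered in replicate 1 and of 53 in replicate 2 (mean 68.6% ± 0.907, SD, n = 2), against 29.5% of protein-coding genes in either list. No label tells if these were separate cultures, so this spread may be technical. Both replicates covered the same 42 starts, 12 starts were covered in replicate 1 alone, 11 in replicate 2 alone and 13 in neither. Mrps2, a small-subunit protein with a bacterial counterpart, was the 1 gene with no peak in either list within 10 kb, a state that held for 32.2% of all protein-coding genes.

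The promoter windows of the large-subunit genes Mrpl18, Mrpl41, Mrpl43 and Mrpl40 and of the small-subunit genes Mrps12 and Mrps18b, each at the listed start nearest to the 5′ end of the gene, are printed because a peak of each replicate covered the whole window and because these peaks were the widest among the 12 genes where that was so. Mrpl48 has several listed starts, and its covered start is not the one nearest to its 5′ end, so it is not among the 12. Each window runs from 250 bases before the start to 50 bases of the transcribed side, 5′ to 3′ in the direction of the gene, from the RefSeq promoters of GRCm38.p6. Capitals mark every match on either strand to the RUNX sequence TGTGGT or its variant TGCGGT, the ETS core CCGGAAG and the CCAAT box.
Mrpl18 (chr17:12916042-12916341, minus strand): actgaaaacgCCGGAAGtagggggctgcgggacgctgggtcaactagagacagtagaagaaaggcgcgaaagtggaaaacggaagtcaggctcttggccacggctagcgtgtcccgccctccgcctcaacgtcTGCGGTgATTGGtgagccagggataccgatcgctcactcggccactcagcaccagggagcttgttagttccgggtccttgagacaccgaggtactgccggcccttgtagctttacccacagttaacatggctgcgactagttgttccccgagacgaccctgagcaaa
Mrpl41 (chr2:24975049-24975348, minus strand): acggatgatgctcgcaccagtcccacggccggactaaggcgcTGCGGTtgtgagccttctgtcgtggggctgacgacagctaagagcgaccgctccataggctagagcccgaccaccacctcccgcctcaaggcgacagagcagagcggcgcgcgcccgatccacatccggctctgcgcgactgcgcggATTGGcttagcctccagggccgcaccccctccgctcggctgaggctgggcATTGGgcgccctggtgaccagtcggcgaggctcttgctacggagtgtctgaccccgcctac
Mrpl43 (chr19:45006393-45006692, minus strand): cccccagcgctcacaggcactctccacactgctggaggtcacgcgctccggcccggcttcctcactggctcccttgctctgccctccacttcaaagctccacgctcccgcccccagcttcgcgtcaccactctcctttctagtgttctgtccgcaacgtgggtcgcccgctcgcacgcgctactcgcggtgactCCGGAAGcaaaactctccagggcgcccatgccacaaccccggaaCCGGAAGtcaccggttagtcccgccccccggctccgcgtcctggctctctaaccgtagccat
Mrpl40 (chr16:18876588-18876887, minus strand): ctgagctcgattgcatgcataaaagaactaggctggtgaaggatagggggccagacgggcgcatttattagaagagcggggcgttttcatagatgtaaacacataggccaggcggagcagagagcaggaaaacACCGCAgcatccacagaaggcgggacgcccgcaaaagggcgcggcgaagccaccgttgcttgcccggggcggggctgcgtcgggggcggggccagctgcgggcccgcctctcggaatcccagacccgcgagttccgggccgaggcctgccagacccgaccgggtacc
Mrps12 (chr7:28741772-28742071, minus strand): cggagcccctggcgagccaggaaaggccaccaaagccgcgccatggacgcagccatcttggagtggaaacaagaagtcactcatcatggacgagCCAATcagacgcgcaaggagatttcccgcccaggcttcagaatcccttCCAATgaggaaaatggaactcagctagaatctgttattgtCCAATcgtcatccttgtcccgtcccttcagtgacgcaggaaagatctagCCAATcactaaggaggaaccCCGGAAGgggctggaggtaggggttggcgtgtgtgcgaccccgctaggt
Mrps18b (chr17:35916391-35916690, minus strand): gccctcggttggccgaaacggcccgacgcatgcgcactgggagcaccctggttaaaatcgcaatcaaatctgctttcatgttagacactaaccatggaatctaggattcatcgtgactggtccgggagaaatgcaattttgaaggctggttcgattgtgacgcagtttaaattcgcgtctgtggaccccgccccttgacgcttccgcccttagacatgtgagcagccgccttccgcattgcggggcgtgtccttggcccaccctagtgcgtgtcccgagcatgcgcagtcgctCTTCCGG
The last window is that of Mrps2, shown as the gene without a peak. It holds none of these matches.
Mrps2 (chr2:28467816-28468115, plus strand): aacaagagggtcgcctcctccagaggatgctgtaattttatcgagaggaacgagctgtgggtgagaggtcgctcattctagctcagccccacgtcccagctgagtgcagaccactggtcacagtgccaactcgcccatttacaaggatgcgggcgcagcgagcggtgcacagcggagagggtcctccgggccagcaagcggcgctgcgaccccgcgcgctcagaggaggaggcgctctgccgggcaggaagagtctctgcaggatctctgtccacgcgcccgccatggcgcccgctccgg

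The printed windows share no single pattern of matches. TGCGGT occurs in Mrpl18, where its first base lies 117 bases before the start, and in Mrpl41, 208 bases before it. Mrpl40 holds it as the reverse complement, 117 bases before the start. None of these windows holds TGTGGT or its reverse complement. Mrpl43 has a pair of ETS cores, 56 and 12 bases before the start, and Mrps12 has 4 CCAAT boxes, the farthest 156 and the nearest 19 bases before it. A match is a description of the letters and not a site.

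Among the genes with an Mrpl symbol, 42 of 49 (85.7%, 73.3 to 92.9) had a shared region and 28 (57.1%, 43.3 to 70.0) had it over the start. Mrpl18, a protein of the large subunit linked in human cells to the import of ribosomal RNA into mitochondria, had the widest peaks over a start by mean rank of width in both lists. Its region on chromosome 17 from 12915889 to 12916854 measured 966 bp in replicate 1 and 945 bp in replicate 2, and it also covered the start of Tcp1, which encodes a subunit of the cytosolic chaperonin. At Mrpl41 the peaks were 941 and 955 bp wide (chromosome 2, 24974982 to 24975961). At Mrpl43 they were 1033 and 885 bp wide (chromosome 19, 45005883 to 45007071), and that region also covered the start of Twnk, the gene for the helicase that unwinds mitochondrial DNA. These 3 regions differed little in width between the replicates.

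Mrpl51, Mrpl48 and Mrpl40 followed among the Mrpl genes. The Mrpl51 peaks measured 872 and 834 bp in replicates 1 and 2 and extended over the start of Ncapd2, which encodes a condensin subunit. The Mrpl48 peaks measured 878 and 715 bp and extended over the start of Rab6a, a gene for a GTPase of Golgi traffic. The Mrpl40 peaks measured 852 and 674 bp and extended over the start of Hira, the gene for a histone chaperone. At other genes the replicates differed more. Mrpl2, whose product lies near the catalytic centre of the ribosome in its bacterial counterpart, had a peak of 1223 bp in replicate 1 and of 497 bp in replicate 2.

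Among the genes with an Mrps symbol, 22 of 29 (75.9%, 57.9 to 87.8) had a shared region and 14 (48.3%, 31.4 to 65.6) had it over the start, so the intervals of both groups of symbols overlap widely. Mrps12, the counterpart of the bacterial protein at the decoding centre, had peaks of 791 bp in replicate 1 and 1084 bp in replicate 2 (chromosome 7, 28741730 to 28742813). The same region covered the start of Sars2, the gene for the mitochondrial seryl-tRNA synthetase. Mrps36, the dehydrogenase subunit gene, had peaks of 811 and 878 bp. Mrps18b had peaks of 765 and 725 bp. Mrps28, a gene without a listed start, had peaks of 740 and 730 bp at its high end.

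The paralogues Mrps18a, Mrps18b and Mrps18c differed from each other. Mrps18a had 2 shared regions, with 849 and 455 bp in replicates 1 and 2 over its start, and Mrps18b had 3. Mrps18c had none. A replicate 1 peak of 696 bp covered the Mrps18c start, 126 bp from its midpoint, and replicate 2 had no peak within 10 kb of this gene.

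**Figure D1:**
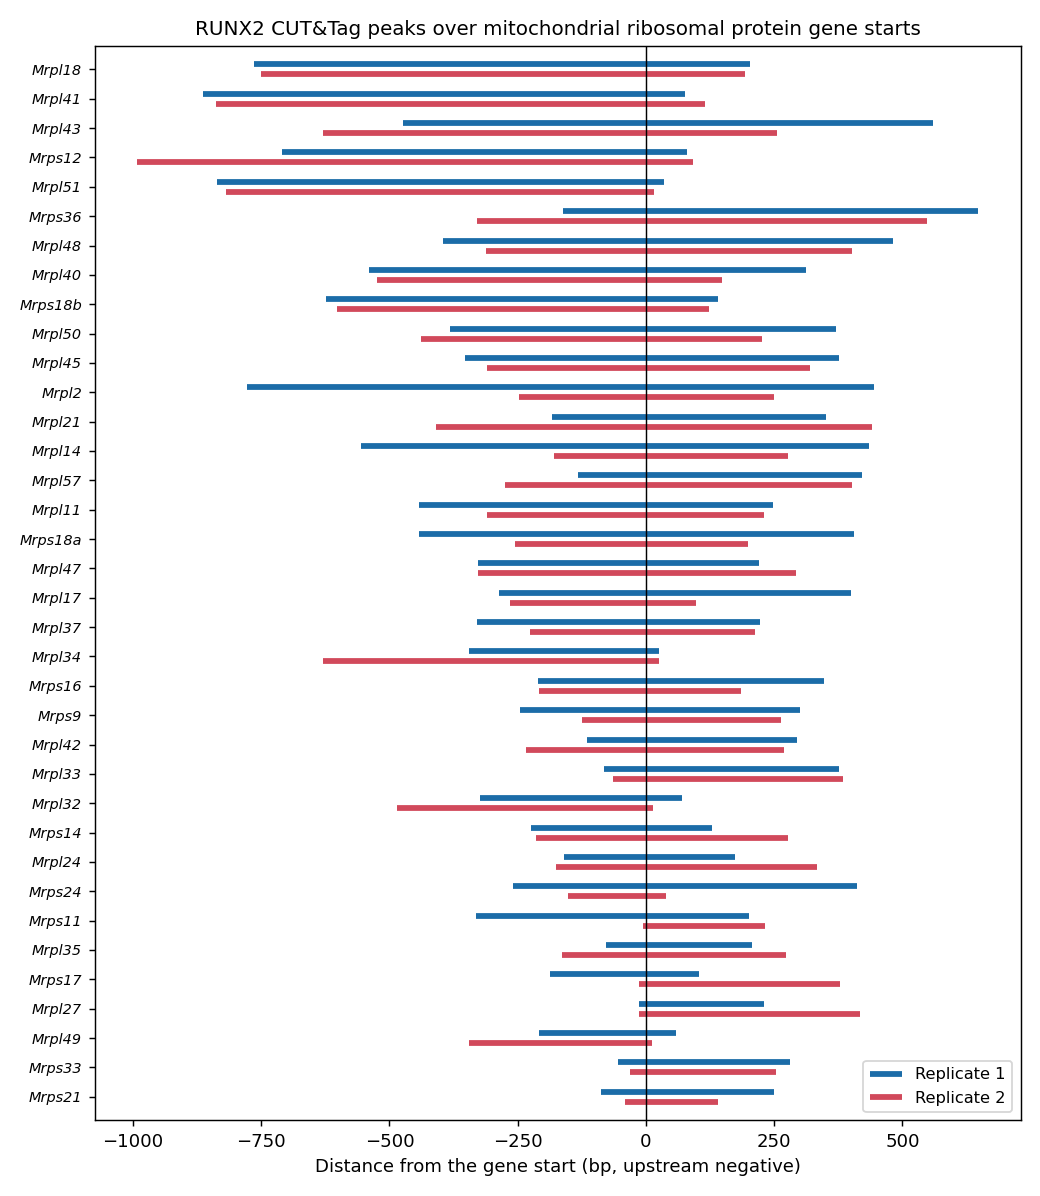
Peaks over the listed starts of 36 mitochondrial ribosomal protein genes, ordered from the widest by mean rank of width at the top; the horizontal axis is the distance from the gene start in bp along the direction of the gene, with a blue bar for the replicate 1 peak and a red bar for the replicate 2 peak. The midpoints of the replicate 1 peaks lie between 400 bp upstream and 243 bp downstream of the start, and Mrpl18, Mrpl41 and Mrps12 have most of their width upstream.

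Peaks over these starts had their midpoints on both sides of the start. The peaks were chosen because they cover the start, so their midpoints lie near it by construction, the more so for narrow peaks. For the 36 genes with a listed start, the midpoint of the replicate 1 peak lay at a median of -12 bp (quartiles -102 and 71 bp, negative being upstream), with 19 midpoints upstream and 17 downstream. For 4240 other protein-coding genes with a covered start the median was -24 bp (quartiles -129 and 81 bp). A midpoint within 100 bp of the start was found at 22 of the 36 genes (61.1%) and at 47.9% of the others. In replicate 1 the median width was 555 bp for regions over starts of the group and 580 bp over other starts. The part of width in the difference was not tested. The map of peaks around the start shows the range, from Mrpl51, centred 400 bp upstream, to Mrps36, centred 243 bp downstream.

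The regions were not wide. The 42 regions over starts of mitochondrial ribosomal protein genes had a median width of 555 bp in replicate 1 (246 to 1223) and 502 bp in replicate 2 (181 to 1084). The 4545 shared regions over other protein-coding starts had medians of 580 and 585 bp. Over the 42 regions, the widths of the replicates had a Pearson correlation of 0.555 and a Spearman correlation of 0.602, given as a description, since the regions share the same libraries. The ratio of replicate 1 to replicate 2 width was 1.03 at the median and ranged from 0.566 at Mrpl34 to 3.48 at Mrps24. Mrps24 had 671 bp in replicate 1 and 193 bp in replicate 2.

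**Figure D2:**
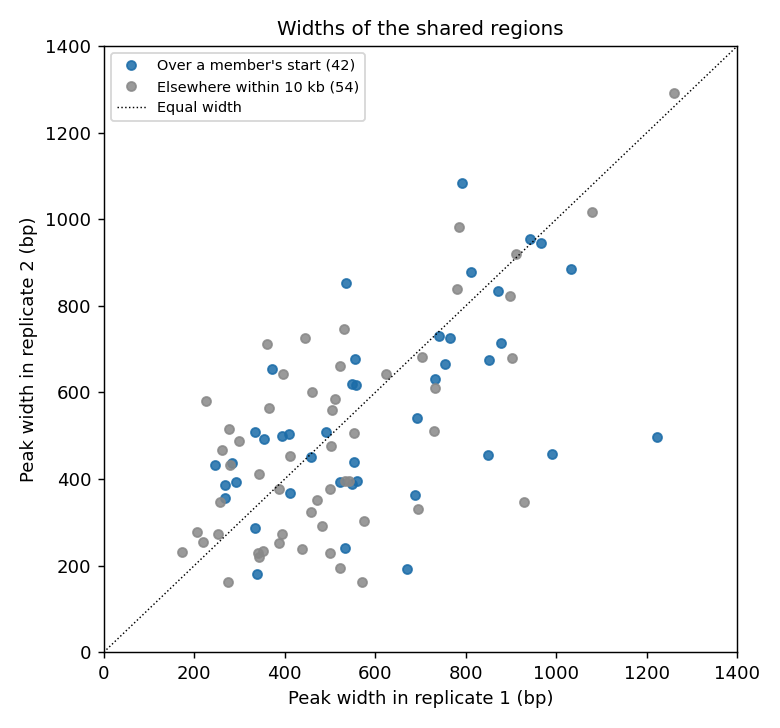
Widths in bp of the 96 shared regions linked to mitochondrial ribosomal protein genes, replicate 1 on the horizontal and replicate 2 on the vertical axis; blue points are the 42 regions over a start, grey points the 54 others, and the dotted line marks equal width. The widest pair, 1260 and 1292 bp, belongs to a grey point near Mrpl58, and several blue points such as Mrpl2 lie far below the line.

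Shared regions were mostly single in the group, and no such split was made over all protein-coding genes. Of the 64 genes with a shared region, 41 had 1, 14 had 2, 8 had 3 and Mrpl48 had 4. The genes with 3 were Mrpl24, Mrpl33, Mrpl34, Mrpl45, Mrpl49, Mrpl53, Mrps18b and Mrps28. Those with 2 were Mrpl1, Mrpl35, Mrpl42, Mrpl54, Mrpl55, Mrpl58, Mrps16, Mrps17, Mrps18a, Mrps21, Mrps23, Mrps27, Mrps34 and Mrps36. The 4 regions of Mrpl48, a gene of 62523 bp with several listed starts, included 3 whose positions were 44, 174 and 392 bp from a listed start of Mrpl48, and the fourth at the start of Coa4, an assembly factor of the respiratory chain. Mrpl45, whose product helps to anchor the ribosome at the inner membrane, had a region of 731 and 630 bp over its start and a wider region 5837 bp away, of 911 bp in replicate 1 and 920 bp in replicate 2.

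Most linked regions were linked to more than a single gene. The 64 genes were linked to 96 shared regions, of which 42 (43.8%) lay over a start of the group and 71 (74.0%, 64.4 to 81.7) were linked to at least 2 protein-coding genes, against 29.8% of the 13222 other shared regions linked to any. Among regions within 1 kb of a protein-coding start the shares were 61 of 77 (79.2%, 68.9 to 86.8) and 48.7% of 6234. Of the 96, 77 (80.2%, 71.1 to 86.9) lay within 1 kb of a protein-coding start. So did 6234 of the 13222 other linked regions. The share was 35.4% over all 17836 shared regions on chromosomes 1 to 19, which include regions linked to no gene. Of the 54 regions not over the start of a mitochondrial ribosomal protein gene, 15 covered the start of another protein-coding gene and 19 lay over 1 kb from any. The widest was 9513 bp from the Mrpl58 start on chromosome 11 from 115412584 to 115413895, with 1260 bp in replicate 1 and 1292 bp in replicate 2. Mrpl58 encodes a peptidyl-tRNA hydrolase that frees stalled mitochondrial ribosomes, and the nearest start was that of the ATP synthase gene Atp5h, 6654 bp away. The region linked to Mrpl52 lay nearer to Mmp14, a matrix metalloproteinase gene, at 2210 bp from the Mmp14 start and 6899 bp from the Mrpl52 start.

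In 22 genes the shared regions did not cover the start in both replicates. Among all protein-coding genes, 11278 had a shared region and 5055 had one over the start. In 16 of the 22 genes a shared region was nevertheless positioned within 1 kb of the start. At Mrpl44 the region's position was 62 bp from the start, with a peak of 388 bp in replicate 1 that covered the start and a peak of 253 bp in replicate 2 that did not. Mrps30 and Mrpl55 were alike, at 39 and 27 bp. The other 6 genes, Mrpl4, Mrpl20, Mrpl52, Mrpl58, Mrps27 and Mrps31, had their nearest shared position between 1802 and 40160 bp from the start.

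Most of the 14 genes without a shared region had a peak in a single list. The 7 with replicate 1 peaks alone were Mrpl3, Mrpl9, Mrpl12, Mrpl36, Mrps5, Mrps18c and Mrps22, and the 5 with replicate 2 peaks alone were Mrpl10, Mrpl16, Mrps15, Mrps25 and Mrps35. These are 8.97% (4.42 to 17.4) and 6.41% (2.77 to 14.1) of the group, against 5.11% and 5.20% of all protein-coding genes. Mrpl22 had 2 peaks in replicate 1 and 1 in replicate 2 at different places. Of the 17 peaks at these genes, 10 covered the start, and their median width was 372 bp, against a median of 395 bp in either full list. Mrpl12, whose product also binds the mitochondrial RNA polymerase, had a replicate 1 peak of 372 bp over its start, and its nearest shared region was 17173 bp away. Since the lists hold only called peaks, signal below the calling limit in the other replicate would not appear.

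Paired promoters were common in the group. A head-to-head partner, a protein-coding gene on the other strand whose listed start lay within 1 kb and pointed away, was found for 24 of the 69 genes with a listed start (34.8%, 24.6 to 46.6), against 8.21% (7.80 to 8.64) of the other protein-coding genes. Of these 24, 18 (75%, 55.1 to 88.0) had a covered start, against 62.6% of the other genes with a partner. Of the 45 without a partner, 18 (40.0%, 27.0 to 54.5) had one, against 22.6% of the others. Mrpl46 and Mrps11, a large-subunit and a small-subunit gene whose starts are 42 bp apart, shared a region of 532 bp in replicate 1 and 240 bp in replicate 2, which covered the Mrps11 start in both replicates and the Mrpl46 start in replicate 1 only. Mrpl47 and Ndufb5, a gene for a subunit of respiratory complex I, shared a region of 548 and 620 bp over both starts, and Mrpl49 and Fau, the gene for a cytosolic ribosomal protein, shared a region of 268 and 357 bp over both starts. A region over paired starts cannot be assigned to either gene.

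The genes were also short and lay among other genes. Their median length was 7690.5 bp, against 17608 bp for the other protein-coding genes, and they had on average 1.58 protein-coding neighbours within 10 kb, against 1.11. A longer gene has more room for a region within its span. Of the genes shorter than the group's own median, 32 of 39 (82.1%, 67.3 to 91.0) had a shared region, against 36.2% of other genes of that length. Of the longer genes, 32 of 39 (82.1%, 67.3 to 91.0) had one, against 62.3%. Among genes shorter than the group's own median, a start was covered at 22 of 39 (56.4%, 41.0 to 70.7), against 15.6% of other genes of that length. Among the longer genes it was covered at 20 of 39 (51.3%, 36.2 to 66.1), against 28.1%.

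Promoters of the group were rich in CpG. The covered shares of the group and of other genes were close with 15 to 25 CpG. The group's share was higher with 5 to 14 and with 26 to 65 CpG. The 300-base windows of the 69 genes held a median of 21 CpG (quartiles 16 and 26), against 14 (4 and 25) for the other genes, where the listed start nearest to the 5′ end of each gene was used. None of the 69 fell in the lowest of 4 classes of about equal size, with 0 to 4 CpG, where 0.756% of the other starts were covered. With 5 to 14 CpG, 7 of 15 starts (46.7%, 24.8 to 69.9) of the group were covered, against 16.8%. With 15 to 25 CpG, the class with most of the group, the shares were 17 of 36 (47.2%, 32.0 to 63.0) and 46.4%. With 26 to 65 CpG they were 11 of 18 (61.1%, 38.6 to 79.7) and 37.6%. The part of CpG content, gene spacing and paired promoters in the group's share was not tested.

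**Figure D3:**
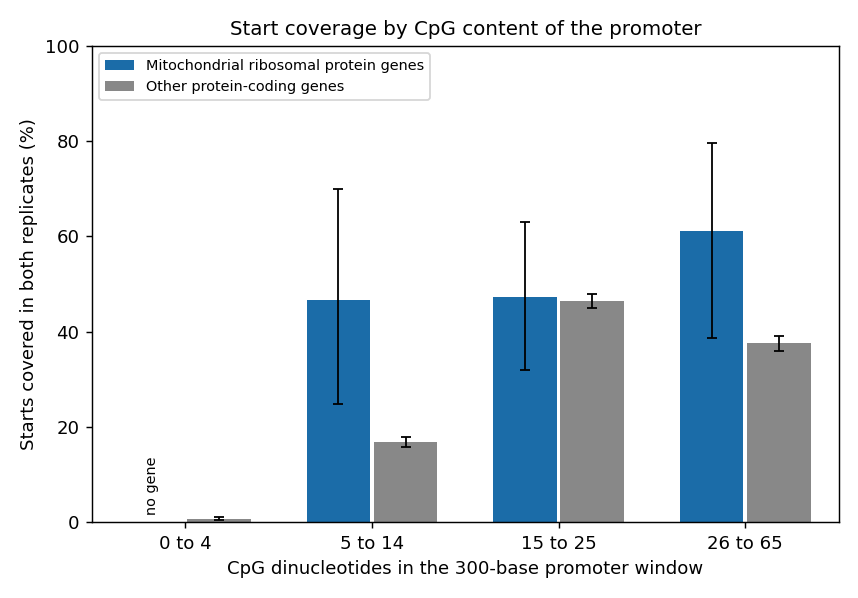
Share of gene starts covered by a peak of each replicate, in percent, for 4 classes of CpG count in the 300-base promoter window; blue bars are mitochondrial ribosomal protein genes, grey bars all other protein-coding genes with a listed start, and error bars are 95% Wilson intervals. The bars are level for 15 to 25 CpG, and the blue bar is higher for 5 to 14 and for 26 to 65 CpG.

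The RUNX sequence TGTGGT was about as frequent in covered windows of the group as in the group's other windows. Covered here means that the listed start nearest to the 5′ end lay under a peak of each replicate. The whole window lay under peaks of both replicates at 12 of the 69 genes, so a match may lie outside the peaks. Windows not covered include those whose start lay under a peak of 1 replicate alone, as at Mrpl12 and Mrps25. TGTGGT on either strand was found in 4 of 35 covered windows (11.4%) and 4 of 34 windows that were not covered (11.8%), against 14.8% of all 16457 protein-coding windows. The variant TGCGGT was found in 6 of 35 (17.1%) and 4 of 34 (11.8%), against 7.46% of all windows. The ETS core CCGGAAG was found in 14 of 35 (40.0%) and 10 of 34 (29.4%), against 12.3%. The YY1 sequence AAGATGGCG was found in 6 of 35 (17.1%) and 2 of 34 (5.88%), against 1.92%, and the NRF1 core TGCGCA in 11 of 35 (31.4%) and 10 of 34 (29.4%), against 10.1%. Among the 4074 covered windows of all protein-coding genes, 12.4% held TGTGGT, 11.8% held TGCGGT, 25.8% held the ETS core, 4.10% held the YY1 sequence and 20% held the NRF1 core. The CCAAT box was in 15 of 35 covered windows of the group (42.9%) and 12 of 34 others (35.3%). It was in 39.1% of the group's windows, against 39.1% of all windows and 48.3% of all covered windows. The AP-1 sequence TGANTCA was in 1 of 35 (2.86%) and 2 of 34 (5.88%), against 7.12% of all windows and 4.44% of all covered windows. The TATA box TATAAA was in 2 of 35 (5.71%) and 2 of 34 (5.88%), against 13.5% and 5.82%. Over all of the group's windows, the AP-1 and TATA shares were 4.35% and 5.80%. The motif shares carry no interval, and those of the group rest on small counts. Both strands were searched, matches of different motifs may overlap, and a window without these letters says nothing of binding elsewhere in the peak.

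Other genes of mitochondrial translation had shared regions in a higher share of each list than the group's 82.1%. These lists are short, and their intervals overlap that of the group. Of the 5 mitoribosomal proteins whose symbols are of another form, all 5 had a shared region, and Ptcd3 (812 and 780 bp in replicates 1 and 2) and Aurkaip1 (604 and 458 bp) had it over the start. Of 15 mitochondrial translation factors, 14 had a shared region and 7 had it over the start. The widest were at Mtrf1l, a release factor gene (911 and 624 bp), and Lrpprc, which encodes a stabiliser of mitochondrial mRNA (682 and 699 bp). Slirp, whose product is the partner of LRPPRC, had 2 peaks in replicate 2 and none in replicate 1. Of 24 genes for assembly of the mitochondrial ribosome, 23 had a shared region and 17 had it over the start (70.8%, 50.8 to 85.1), led by the ribosomal RNA methyltransferase genes Tfb1m (755 and 848 bp) and Nsun4 (949 and 682 bp).

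All 17 mitochondrial aminoacyl-tRNA synthetase genes had a shared region, and 13 had it over the start (76.5%, 52.7 to 90.4), led by Sars2 and by Wars2 (1016 and 801 bp). Among 15 genes for the upkeep and transcription of mitochondrial DNA and their nuclear regulators, 12 had a shared region and 9 had it over the start. The widest was at Pprc1, which encodes a coactivator of the PGC-1 family, with 1307 bp in replicate 1 and 1226 bp in replicate 2, followed by that of Twnk. Its relative Ppargc1a and the regulator gene Nrf1 had peaks in both lists and no shared region, and Tfam, which encodes the main packaging protein of mitochondrial DNA, had 1 peak in replicate 1 and none in replicate 2.

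Respiratory chain and ATP synthase genes and cytosolic ribosomal protein genes had start coverage as frequent as the mitochondrial ribosomal protein genes or more frequent. Among 82 respiratory chain and ATP synthase genes, 64 (78.0%, 67.9 to 85.6) had a shared region and 46 (56.1%, 45.3 to 66.3) had it over the start, led by Atp5d (1064 and 1083 bp) and Cox5a (871 and 1090 bp). The 5 with no peak in either list were Cox6a2, Cox6b2, Cox7b2, Cox8b and Cox8c, named after their values were seen, which encode isoforms of cytochrome oxidase subunits known mainly from muscle or testis. Other isoforms of restricted expression did have peaks. Cox7a1, known from muscle, had a shared region of 379 and 672 bp that was not over its start, and Cox4i2, known from lung, had 1 peak in replicate 2 and none in replicate 1. Among 79 cytosolic ribosomal protein genes, 68 (86.1%, 76.8 to 92.0) had a shared region and 53 (67.1%, 56.1 to 76.4) had it over the start, for example Rpl7 (866 and 924 bp). The 3 with no peak in either list were Rpl10l, Rpl32l and Rpl39l. The intervals of these lists overlap that of the mitochondrial ribosomal protein genes. Some regions count in more than a single list. Those of Sars2, Twnk, Ndufb5 and Fau, for example, also lie over starts of mitochondrial ribosomal protein genes.

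**Figure D4:**
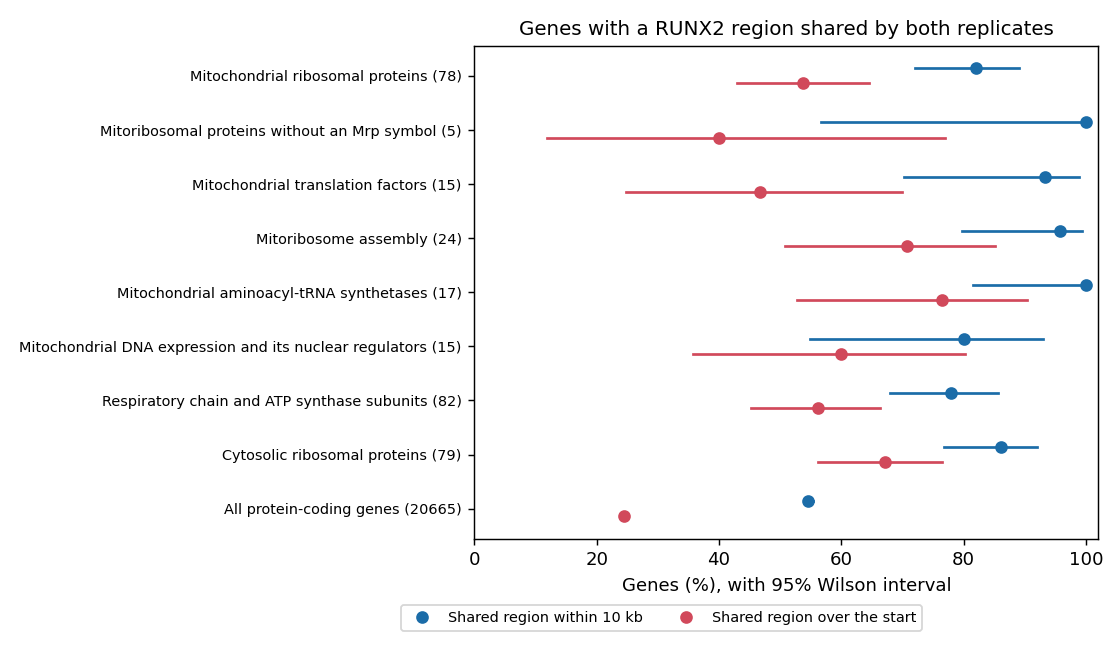
Share of genes, in percent, with a shared region within 10 kb (blue) and with a shared region over the start (red) for the mitochondrial ribosomal protein genes at the top, 7 other lists and all protein-coding genes at the bottom, with the number of genes in brackets and 95% Wilson intervals as lines. All 8 lists have blue points to the right of that of all protein-coding genes, at 54.6%, and red points to the right of that at 24.5%.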

How the data were processed

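CUT&Tag with an antibody against RUNX2 was done in untreated MC3T3-E1 cells, with 2 replicates in 1 group. The submitters' processing notes name fastp 0.19.6, Bowtie2 and deepTools and the build GRCm38 (mm10), and no source used here gives the peak caller, its threshold or a control. The authors deposited a peak list per replicate, not pooled, with 5 columns and no header, read from the values as running number, chromosome, start, end and width. No scores or counts are in the lists, so depth is unknown and width is the only measure of size.

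Genes came from the RefSeq table of GRCm38.p6, and starts from its promoter table, which lists starts for 69 of the 78 genes and 16457 of all 20665. Linking was done in Python 3.11.15 with pandas 2.3.3, checked against bedtools 2.31.1 for the overlap of the lists and tested on simulated data. Within each promoter the letters of each motif were searched on both strands.

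The members and gene lists were chosen with earlier results of these data known. Named are the 10 genes with the widest start-covering regions, those with at least 2 shared regions, those without one, and the 2 leading genes of each other list, with its genes that have no peak if 4 or fewer. A gene picked in this way is left out here. The other genes named were chosen after their values were seen. Alternatives were wider peaks only, a 50% reciprocal overlap, each replicate alone, other positions, distances and links. Counting only genes with a listed start was added after the data were seen.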

Additional observations from a re-analysis of the deposited data

How the results depend on the processing

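The count of 64 genes with a shared region was between 45 and 72 under all alternatives but 1, and that of 42 with a covered start between 36 and 58. The 45 is from giving each region to the nearest gene end within 100 kb. All protein-coding genes had 46.1% there, so the group's lead was smaller than in the report. With a 50% reciprocal overlap the counts were 51 and 37 of the 78 genes, against 46.5% and 21%, also smaller leads. The lead in linked genes was larger within 5 kb (64 genes against 49.7%) and within 1 kb (61 against 45.0%). The 36 is of the 69 genes with a listed start. The 58 allows 500 bp between peak and start, where the share of all protein-coding genes was 33.4%. With only the peaks above the median width of each list, the counts were 37 and 24, the share of all protein-coding genes with a shared region was 37.6% (54.6% in the report) and that of all covered starts 17.2%. That setting drops the narrower peaks by construction. The share of all protein-coding genes was 46.5% with a 50% reciprocal overlap, 54.8% with any base of the region counted, 49.7% within 5 kb, 45.0% within 1 kb, 46.1% with each region given to the nearest gene end within 100 kb and 55.2% with only genes that have a listed start. With a single list (without replicate 1 or without replicate 2) it ranged from 62.6% to 62.7%, the counts of genes were 70 and 72 (linked) and 53 and 54 (start covered), and the regions within 1 kb of a start made up 73.3% to 75.4% (80.2% in the report). That share was 73.9% with wider peaks only. The median widths were 730 and 663 bp with wider peaks only, 460 bp from replicate 1 peaks alone and 438 bp from replicate 2 peaks alone, and 507 bp in replicate 2 with a 50% reciprocal overlap, against 516 and 482 bp. The cause was not tested. No value reversed. No paired analysis was possible because the samples form 1 group with no contrast. Depth is unknown, so peaks missed in a list cannot be told from signal below the calling limit.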
